A study of Homo sapiens with 9 samples.

Results

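The genes described here encode the proteins of the cytosolic ribosome. They were chosen by symbol alone: every row named RPL or RPS followed by a number, with or without a final A or X, together with RPLP0, RPLP1, RPLP2 and RPSA. This gave 77 of the 27730 gene symbols in the table, of which 31 belong to the small 40S subunit, 43 to the body of the large 60S subunit and 3 to the P-stalk of the 60S subunit. All 77 passed the filter on low counts in each of the 3 comparisons, and each had between 99 and 11125 reads in every library. RNA sequencing was done on the human embryonic stem cell line HUES9, a single established line, used at passages 44 to 46. The day 1 group was untreated. The RP22 group was collected at day 13 of differentiation with 10 µM RP22, and the AA147 group at day 13 with 10 µM AA147, each with 3 replicates, as was day 1. AA147 is a small molecule that activates the transcription factor ATF6 of the unfolded protein response, and RP22 is its analogue, which served as the control compound. The stem cells had been kept on a mouse fibroblast feeder layer, were spun into embryoid bodies and later plated on Matrigel, and the compounds were renewed with the medium every day. Solvent-only cultures were not analysed here.

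A ribosome is built from 4 ribosomal RNAs and one copy of nearly every ribosomal protein, so the proteins are needed in equal numbers. The 40S subunit reads the messenger RNA and the 60S subunit forms the peptide bonds, while the P-stalk (RPLP0 with RPLP1 and RPLP2) recruits the translation factors that use GTP. Most mRNAs of this family begin with a C followed by a run of pyrimidines, the 5′ terminal oligopyrimidine (TOP) element, through which the mTORC1 pathway and the LARP1 protein control their translation and storage. Pluripotent stem cells are known for abundant ribosomal protein mRNA and ribosome assembly together with a low rate of protein synthesis.

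The start sites show this shared element. RefSeq start sequences (GRCh38.p14) were held for 62 of the 77 genes. At 46 of these 62 (74.2%) an annotated start was a C followed by at least 4 further C or T bases, against 1404 of 27305 genes (5.14%) in the whole table. The 30-base windows shown here run from 15 bases before the start to 15 bases from it, for genes at either end of the fold changes that follow and for RPS6, a 40S protein used as the phosphorylation readout of mTORC1 signalling. Capitals mark the pyrimidine run, and RPS7 is shown as a gene whose annotated start has no TOP.
RPSA: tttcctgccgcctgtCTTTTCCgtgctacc
RPL24: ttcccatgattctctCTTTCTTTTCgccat
RPL11: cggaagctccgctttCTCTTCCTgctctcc
RPS6: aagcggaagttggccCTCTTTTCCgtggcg
RPL10: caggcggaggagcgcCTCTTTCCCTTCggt
RPS19: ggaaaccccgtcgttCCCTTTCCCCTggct
RPLP1: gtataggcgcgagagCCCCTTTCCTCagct
RPS7: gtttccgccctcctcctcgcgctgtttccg
These windows lie at chr3:39406705-39406734 on the plus strand for RPSA, chr3:101686704-101686733 on the minus strand for RPL24, chr1:23691791-23691820 on the plus strand for RPL11, chr9:19380222-19380251 on the minus strand for RPS6, chrX:154398362-154398391 on the plus strand for RPL10, chr19:41860240-41860269 on the plus strand for RPS19, chr15:69452803-69452832 on the plus strand for RPLP1 and chr2:3575245-3575274 on the plus strand for RPS7. The run was 12 bases long in RPL10, 11 in RPS19 and RPLP1, 10 in RPL24, 9 in RPS6, 8 in RPL11 and 7 in RPSA. In the window from 250 bases before to 50 after the start, searched on both strands, the ETS core CCGGAAG was present in 22 of the 62 genes (35.5%) and in 12.2% of all genes, the YY1 core AAGATGG in 8 (12.9%) against 7.11%, and the TATA box letters TATAAA in 5 (8.06%) against 13.99%. The YY1 core AAGATGG holds an ATG and can fall on a start codon. A match describes letters and not a bound factor.

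The 77 genes took a smaller part of the reads at day 13 than at day 1. They held 2.78%, 2.999% and 3.05% of all reads in the 3 day 1 libraries, 1.75%, 2.12% and 2.07% with RP22 and 1.32%, 1.501% and 1.43% with AA147. The means were 2.94% ± 0.142 at day 1, 1.98% ± 0.203 with RP22 and 1.41% ± 0.0917 with AA147 (SD, n = 3 each). The 3 groups did not overlap, and replicate 1 was the lowest of its group in each of them. As a share of summed RPKM (reads per gene length and library size), which removes gene length, the means were 8.95%, 6.66% and 4.98%. The day 1 libraries each had 4 of the family among their 100 most read genes (reads, not levels per length), RP22 replicates 2 and 3 had 3, and RP22 replicate 1 and the AA147 libraries had 0. A share depends on the rest of the library: the 10 most read genes of any kind took 2.30% to 2.41% of reads at day 1, 4.47%, 2.45% and 2.50% with RP22 and 8.06% to 8.98% with AA147. In bulk RNA, fewer cells of a type and less RNA per cell cannot be told apart.

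**Figure D1:**
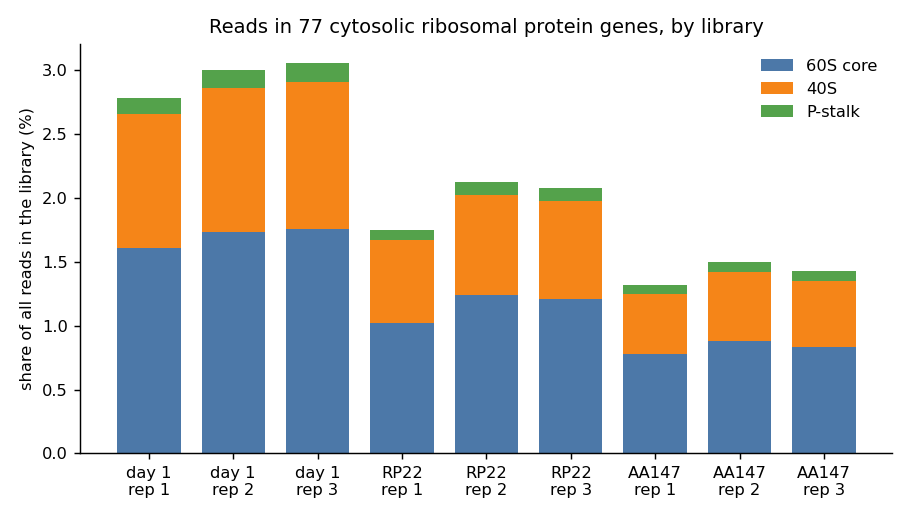
Share of all reads (%, vertical axis) in the 77 ribosomal protein genes for each of the 9 libraries, stacked as 60S body, 40S and P-stalk. The day 1 libraries sit between 2.78% and 3.05%, RP22 between 1.75% and 2.12%, and AA147 between 1.32% and 1.501%.

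Both subunits took part in this. The 40S genes held 1.11% ± 0.0521 of reads at day 1, 0.737% ± 0.0756 with RP22 and 0.511% ± 0.0358 with AA147. The 60S body held 1.70% ± 0.0835, 1.15% ± 0.118 and 0.828% ± 0.0527, and the P-stalk 0.137% ± 0.00611, 0.0917% ± 0.00933 and 0.0758% ± 0.00366 (SD, n = 3 each). The ratio of 40S reads to all 60S reads, which does not depend on scaling between libraries, was 0.602 to 0.606 at day 1, 0.591 to 0.595 with RP22 and 0.557 to 0.574 with AA147. These ranges did not overlap, and the 40S side was lowest with AA147. The 40S sum includes RPSA, the gene with the largest fall (below). RPSA had 5599 to 5875 reads in the day 1 libraries, 2073 to 2644 with RP22 and 1464 to 1754 with AA147. The ratio without RPSA is not given. The small step from day 1 to RP22 therefore cannot be read as a shift of the 40S genes as a whole.

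Levels per length differed widely between genes whose proteins are needed in equal numbers. The median gene was at 444 RPKM at day 1, 299 with RP22 and 212 with AA147, and the highest group mean was 18.03, 16.03 and 16.53 times the lowest. Over all 9 libraries the highest means included RPL8 at 655 RPKM, RPS4X at 604, RPL30 at 598 and RPL38 at 579. The lowest were RPL36A at 41.0, RPS28 at 47.5, RPL27A at 52.2, RPS26 at 62.9 and RPL21 at 64.3. These levels rest on the gene lengths behind the deposited table. Dividing reads by RPKM gives a median length of 832 bases, but over 1000 bases for 24 genes and 4879 for RPL27A, far longer than a ribosomal protein mRNA. Ribosomal protein genes also have many processed pseudogenes in the genome, and how reads shared with them were counted is not given in the sources used here, so the order of levels between genes is uncertain.

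From day 1 to day 13 with RP22, every ribosomal protein mRNA fell. All 77 were lower by edgeR's quasi-likelihood test (Benjamini-Hochberg adjusted p at or under 0.05 over 14558 genes), 0 were higher, and the day 1 and RP22 libraries did not overlap for any of the 77 on the TMM scale used in that test (trimmed mean of M-values, which sets library sizes by the bulk of the genes). Among all genes tested, 35.2% were called lower, 36.6% higher and 38.1% had non-overlapping groups in the lower direction. The median log2 fold change of the family was -0.67 (quartiles -0.80 and -0.56), against 0.02 for all genes tested. The genes moved within a narrow band: the SD over the family was 0.193, against 1.95 over all genes. All genes include many with far fewer reads. Over the translation factor list described below the SD was 0.252, and over the ribosome biogenesis list 0.425. The 40S median was -0.71, the 60S median -0.67 and the P-stalk median -0.65. With library totals alone in place of TMM scaling, 74 were lower (background 31.4%) and RPS23, RPL15 and RPL22 were not called.

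The largest fall was in RPSA, a 40S protein that also serves as the laminin receptor precursor and lies near the mRNA exit. Its CPM (reads scaled to a fixed library total) were 590.2, 590.0 and 626 in the day 1 libraries and 215, 269.7 and 261 with RP22. The groups lay far apart, with a log2 fold change of -1.38 ± 0.0847 (SE; adjusted p = 4.8e-06). RPL8, a 60S protein that contacts the peptidyl transferase centre, had 876, 1000.5 and 953 CPM at day 1 and 425, 511 and 499 with RP22, a log2 change of -1.08 ± 0.0833 (SE; adjusted p = 1.3e-05). RPL24, which forms a bridge between the subunits, had 358, 414 and 419 CPM and then 166, 225 and 214, a log2 change of -1.08 ± 0.110 (SE; adjusted p = 5.5e-05). In all 3 genes RP22 replicate 1 was the lowest library. RPS7, a 40S protein that can bind MDM2, fell by 1.00 on the log2 scale and RPS2, a 40S protein near the mRNA entry, by 0.93.

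The smallest falls were in RPL15, RPS23, RPL39, RPS4X and RPL10. RPL15, a 60S protein needed for pre-rRNA processing, had 661, 681 and 697 CPM at day 1 and 568, 671 and 658 with RP22, so RP22 replicate 2 came within the day 1 range on this scale. Its log2 change was -0.20 ± 0.0719 (SE; adjusted p = 0.032), and the call was lost without RP22 replicate 3, without day 1 replicate 2 and without day 1 replicate 3. RPS23, a decoding centre protein, changed by -0.29, RPL39 of the exit tunnel by -0.37, RPS4X, the X-linked 40S protein, by -0.38 and RPL10, the 60S protein that completes subunit maturation, by -0.39. The other 76 falls held in every leave-one-out fit.

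**Figure D2:**
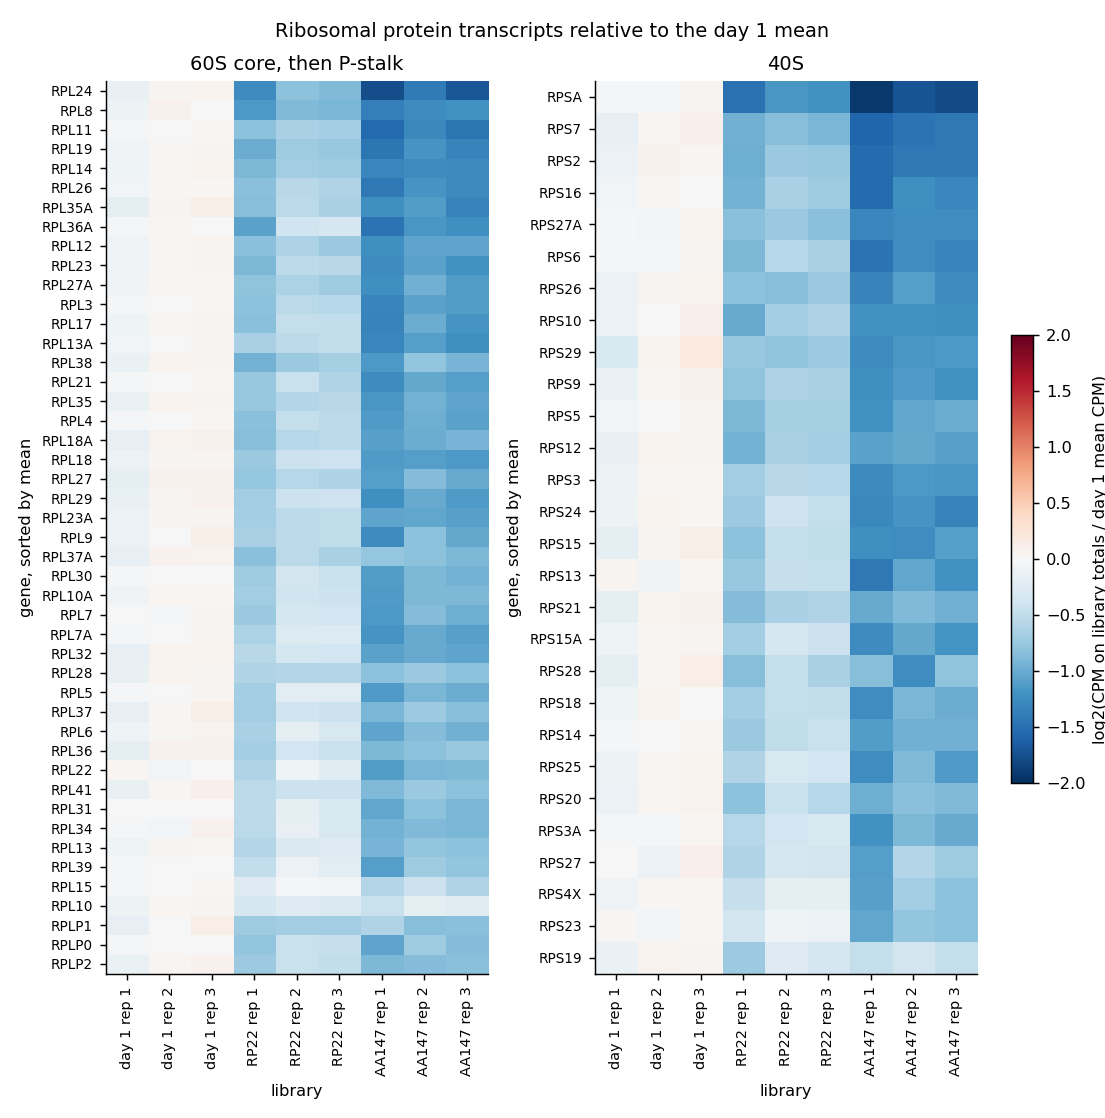
Each row is 1 of 74 of the 77 ribosomal protein genes and each column 1 library. Colour gives the log2 ratio of CPM on library totals to the day 1 mean, blue lower and red higher. The RP22 and AA147 columns are blue in nearly all rows, deepest in RPSA and RPL24 and palest in RPL10, RPL15 and RPS19.

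With AA147, 74 of the 77 were lower than at day 1 and 0 were higher, among 13761 genes tested of which 40.4% were called lower and 38.7% higher. The same 74 had non-overlapping groups (42.0% of all genes in that direction). The family median was -0.62 (quartiles -0.76 and -0.49) against -0.04 for all genes, with medians of -0.72 for the 40S, -0.61 for the 60S body and -0.43 for the P-stalk. The SD over the family was 0.238, against 2.27 over all genes. With library totals alone all 77 were lower (background 53.9%) and the median was -1.06, a scaling that also moves the median of all genes from -0.04 to -0.48. The difference between the family median and that of all genes was -0.58 under either scaling. All 74 were also lower with RP22, but both comparisons use the same day 1 libraries.

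RPSA again fell most: its AA147 libraries had 157, 182 and 174 CPM, against the day 1 values above, a log2 change of -1.37 ± 0.0835 (SE; adjusted p = 3.3e-07). RPL24 had 116, 148 and 122 CPM with AA147 (log2 change -1.18 ± 0.111, SE, adjusted p = 6.6e-06) and RPS7 had 70.4, 76.0 and 78.8 (log2 change -1.06 ± 0.0943, SE, adjusted p = 4.4e-06). RPS2 fell by 1.02 on the log2 scale. RPL11, a 60S protein that with RPL5 and 5S rRNA can bind MDM2, had 495, 507 and 521 CPM at day 1, 288, 323 and 316 with RP22 and 173, 208 and 185 with AA147, and fell by 0.99 against day 1. Its partner RPL5 had 550.2, 564 and 586 CPM at day 1, 354, 489 and 486 with RP22 and 258, 301 and 284 with AA147, and a log2 change of -0.57 ± 0.0825 (SE; adjusted p = 0.00013) with AA147. RPS6 fell by 0.91 and RPS27A, made as a fusion with ubiquitin, by 0.83.

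The 3 genes that did not pass were RPL10, RPS19 and RPL15. RPL10 had 345, 377 and 382 CPM at day 1, 293, 307 and 299.7 with RP22 and 270.4, 326 and 312 with AA147. Its log2 change with AA147 was 0.16 (95% interval -0.05 to 0.37; adjusted p = 0.14), but -0.28 and called lower with library totals, and 0.27 and called higher without AA147 replicate 1. RPS19, a 40S protein mutated in Diamond-Blackfan anaemia, had 376, 430.2 and 428 CPM at day 1, 249, 343 and 325 with RP22 and 296, 320.2 and 296 with AA147. Its log2 change was 0.0021 (95% interval -0.18 to 0.18; adjusted p = 0.98), but -0.44 and called lower with library totals. RPL15 was at -0.10 (adjusted p = 0.25). RPLP1, of the P-stalk, was at -0.32 ± 0.0966 (SE; adjusted p = 0.013), a call lost without AA147 replicate 2 or 3 or day 1 replicate 3. RPS27, a zinc finger protein of the 40S subunit, was at -0.34 ± 0.137 (SE; adjusted p = 0.043), a call lost without AA147 replicate 1 or 3 or day 1 replicate 1 or 3.

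The balance among the genes shifted in a way that needs no scaling between libraries. Each gene's CPM was set against the median gene of the family in the same library, on the log2 scale. RPL10 was at -0.0026 at day 1, 0.34 with RP22 and 0.84 with AA147. RPS19 was at 0.16 at day 1, 0.36 with RP22 and 0.85 with AA147, and RPL15 at 0.88 at day 1, 1.42 with RP22 and 1.47 with AA147. RPSA went the other way, with 0.71 at day 1, 0.07 with RP22 and 0.02 with AA147, as did RPL24 with 0.10 at day 1, -0.24 with RP22 and -0.40 with AA147. The SDs of these values over the 3 libraries of a group ran from 0.0142 to 0.150. RPL10 and RPS19 thus stood higher within the family with RP22 than at day 1, and higher again with AA147, while RPSA stood lower in both day 13 groups.

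The comparison of AA147 with RP22 sets the activator against its analogue at the same dose and day. Few ribosomal protein genes passed the test: 6 were higher and 3 lower of 77, among 14293 genes tested of which 29.8% were called higher and 32.2% lower. The family median was -0.05 (quartiles -0.15 and 0.10; range -0.30 to 0.47), against -0.03 for all genes, and the SD was 0.170 against 1.60. Groups did not overlap for 9 genes in the higher direction (all genes 33.4%) and 9 in the lower (36.5%). The outcome depends on scaling: with library totals alone 0 were higher (13.3% of all genes) and 71 lower (59.7%), with a family median of -0.51 against -0.49 for all genes. Relative to all genes the family median differed by -0.02 under both scalings. TMM factors were 1.13 to 1.19 in the RP22 libraries and 0.848 to 0.864 in those of AA147.

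The 6 genes called higher with TMM scaling stood at the upper end of the family under either scaling, but with library totals none of them was higher. RPL10 had 313, 384 and 368 TMM-scaled CPM with AA147 and 259, 258 and 252 with RP22, a log2 difference of 0.47 ± 0.0872 (SE; adjusted p = 0.0022) that became 0.01 with library totals. RPS19 had 342, 377 and 349.6 against 221, 288 and 273, a difference of 0.45 ± 0.106 (SE; adjusted p = 0.0068), turned to -0.01 by library totals. RPLP1 had 181, 155 and 157 against 128, 122 and 123, a difference of 0.40 ± 0.0791 (SE; adjusted p = 0.0029), turned to -0.05. In all 3 genes every AA147 library lay above every RP22 library on the TMM scale. RPL37A, a zinc finger protein of the 60S subunit, differed by 0.29 ± 0.0757 (SE; adjusted p = 0.010), or -0.16 with library totals. RPL28, of the 60S subunit, differed by 0.25 ± 0.0636 (SE; adjusted p = 0.0098), but was called lower at -0.21 with library totals. RPL38, a 60S protein known from the mouse Tail-short mutant, differed by 0.28 ± 0.105 (SE; adjusted p = 0.048), or -0.18 with library totals. Its groups overlapped, and the call was lost without AA147 replicate 2 or 3 or any of the RP22 replicates.

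The 3 genes called lower kept that direction and call with library totals, but lost the call when single libraries were left out, and one fit of all 9 libraries called 0 members lower (29.4% of all genes). RPS24, another 40S protein linked to Diamond-Blackfan anaemia, had 248, 273 and 244 TMM-scaled CPM with AA147 and 279, 328 and 317 with RP22, a difference of -0.27 ± 0.0856 (SE; adjusted p = 0.024). RPL11 had 200.4, 244 and 219 against 256, 272 and 266, a difference of -0.26 ± 0.0849 (SE; adjusted p = 0.029). Leaving out AA147 replicate 1 or 3, or replicate 2 or 3 of RP22, ended each of these calls. RPL36A at -0.26 (adjusted p = 0.26) and RPL7A at -0.25 (adjusted p = 0.054) did not pass. Without RP22 replicate 1, the library with the fewest ribosomal protein reads of its group, 14 genes were lower (background 33.2%). In that replicate the summed level of 10 mesenchyme markers was 24590 CPM, against 8757 and 9303 in the other RP22 libraries, and its part in the result was not tested.

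**Figure D3:**
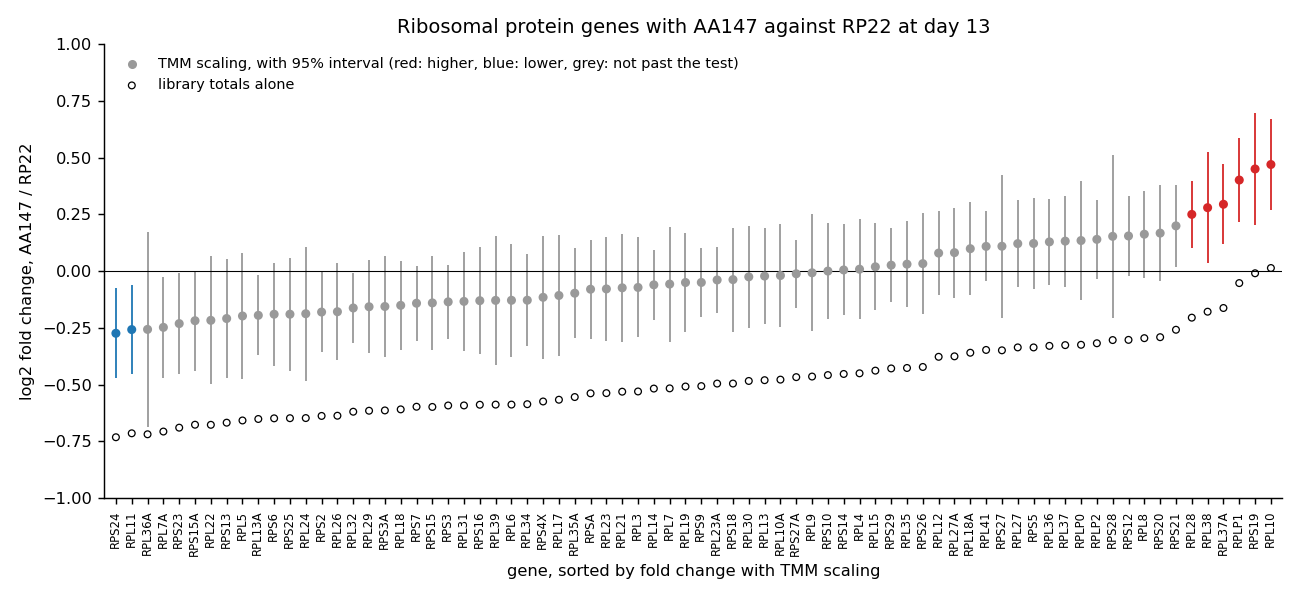
Log2 fold change of AA147 over RP22 (vertical axis) for 74 of the 77 genes, sorted. Filled points with 95% intervals use TMM scaling, with red for the 6 called higher, blue for RPS24 and RPL11, called lower, and grey for genes not past the test, and open circles use library totals alone, where no gene is called higher.

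The other genes named for their function did not pass with TMM scaling, and the intervals given hold under that scaling only. RPSA was at -0.08 (95% interval -0.30 to 0.14), RPS6 at -0.19 (-0.42 to 0.04), RPS27A at -0.01 (-0.16 to 0.14) and RPL5 at -0.20 (-0.47 to 0.08). RPLP0, the stalk base, was at 0.13 (-0.13 to 0.40) and RPLP2 at 0.14 (-0.03 to 0.31). With library totals all 6 were called lower, RPSA at -0.54, RPS6 at -0.65, RPS27A at -0.47, RPL5 at -0.66, RPLP0 at -0.32 and RPLP2 at -0.32. Misses of the threshold do not show that the compounds act alike on these genes.

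Genes with and without a TOP at an annotated start had similar medians. With RP22 against day 1 the median was -0.67 for the 46 genes with a TOP and -0.70 for the 16 without, and with AA147 against day 1 it was -0.63 and -0.61. With AA147 against RP22 it was -0.07 and -0.03. The 6 genes called higher all have a TOP, as do RPS24 and RPL11 among those called lower. Annotated starts are not the starts used in these cells, which were not measured.

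Genes that work with the ribosomal proteins were described from lists of textbook members. Of 44 ribosome biogenesis genes, which make, trim and fold the rRNA, 42 fell with RP22 against day 1 (35.2% of all genes) and 0 rose, with a median of -1.16, a larger median fall than the -0.67 of the ribosomal proteins. RRP9, a U3 snoRNP protein, was lowest at -2.001, and SBDS, which releases EIF6 from the new 60S subunit, was at 0.15 (adjusted p = 0.29). With AA147 against day 1, 40 fell and 2 rose (40.4% and 38.7% of all genes), with a median of -1.19, from NOP16 at -1.87 to SBDS, which rose by 1.31. Between AA147 and RP22, 8 were higher and 11 lower (29.8% and 32.2% of all genes), with a median of -0.02. EIF6, the factor that keeps the 60S subunit from joining too early, was higher by 1.23 ± 0.0788 (SE; adjusted p = 1.6e-05) and SBDS by 1.08 ± 0.0798 (SE; adjusted p = 2.7e-05). Both were also higher with library totals, at 0.77 and 0.63. On that scale EIF6 averaged 144 CPM at day 1, 70.9 with RP22 and 121 with AA147, so with AA147 its mean was below that of day 1. SBDS averaged 51.0, 60.2 and 93.4 CPM in the same order. FBL, the rRNA methyltransferase fibrillarin, was lowest at -0.52.

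The next 18 genes were listed as translation factors, though TPT1, NAP1L1, NACA, BTF3 and HNRNPA1 among them are not translation factors in the strict sense. Of the 18, 17 fell with RP22 against day 1 (median -0.57, lowest BTF3 at -0.83). With AA147 against day 1, 14 fell and 1 rose (median -0.43). Of all genes tested, 35.2% fell and 36.6% rose with RP22, and 40.4% fell and 38.7% rose with AA147. TPT1, whose mRNA also starts with a TOP, was at 0.05 with RP22 (adjusted p = 0.61), and was higher by 0.67 with AA147 against day 1 and by 0.54 against RP22, the latter 0.09 with library totals. HNRNPA1, an RNA-binding protein that fell most with AA147 against day 1, was at -1.37, and at -0.81 against RP22. Between the compounds 3 of these 18 were higher and 6 lower (29.8% and 32.2% of all genes), with a median of 0.07. All 6 chaperones of ribosomal proteins fell in both comparisons with day 1 (35.2% of all genes with RP22 and 40.4% with AA147), with medians of -1.10 and -1.02. The largest fall was in PDCD2L, which binds RPS2, at -1.93 with RP22 and -2.26 with AA147, and the smallest in HEATR3 at -0.38 and -0.29. Between the compounds TSR2, which carries RPS26, was higher by 0.31 (-0.15 with library totals), BCCIP, an RPL23 chaperone, was lower at -0.47, and the list median was 0.02.

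Of 12 regulators of ribosome production and nucleolar stress, 1 rose and 7 fell with RP22 against day 1 (median -0.57), and 2 rose and 7 fell with AA147 (median -0.66). Among all genes 36.6% rose and 35.2% fell with RP22, and 38.7% rose and 40.4% fell with AA147. MYCL, a MYC family factor, rose by 0.60 with RP22. With AA147 against day 1, MYCN was lowest at -2.68 and MDM2, the ubiquitin ligase that free RPL5 and RPL11 bind, was highest at 1.46. Between the compounds 4 were higher and 2 lower (median 0.09; 29.8% and 32.2% of all genes), from MYCL at -2.02 to MDM2 at 1.21 ± 0.118 (SE; adjusted p = 9.5e-05), which was also higher with library totals, at 0.76.

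**Figure D4:**
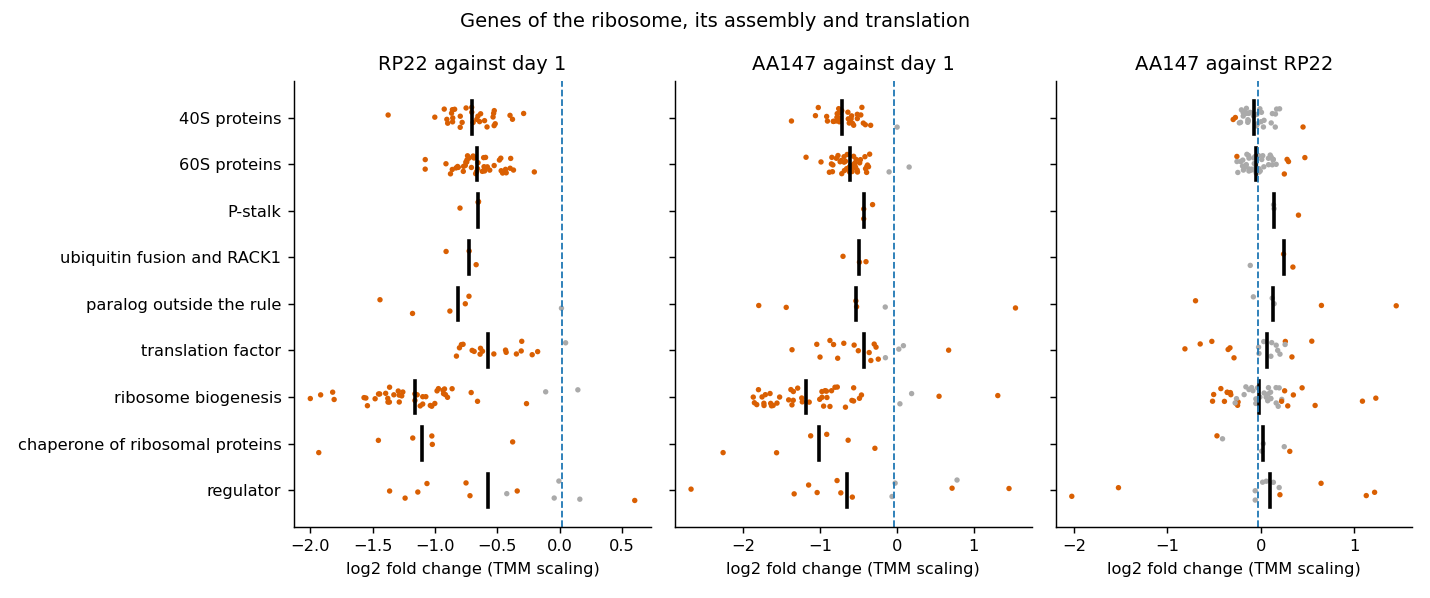
Log2 fold change with TMM scaling (horizontal axis) for each gene of 9 lists in the 3 comparisons, orange where the gene passed the test and grey where it did not. Black bars are list medians and the dashed line is the median of all genes tested: the 40S and 60S bars lie at -0.71 and -0.67 with RP22 and -0.72 and -0.61 with AA147 against day 1, and near the dashed line between the compounds, where library totals would place them at -0.54 and -0.52 and the dashed line at -0.49.

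Genes whose ribosomal products fall outside the naming rule also fell against day 1. FAU, which carries the 40S protein eS30 fused to a ubiquitin-like protein, was at -0.91 with RP22 and -0.49 with AA147. GNB2L1 (RACK1), the scaffold on the 40S head, was at -0.67 and -0.70. These changes passed the test. Between the compounds FAU was higher by 0.34 with TMM scaling, turned to -0.11 by library totals, and GNB2L1 did not pass at -0.11.

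Paralogs of ribosomal proteins, near copies with their own symbols, spanned a wider range than the family. Of 6 that passed the count filter, 5 fell with RP22 and 4 fell and 1 rose with AA147 against day 1, and 2 were higher and 1 lower between the compounds. Of all genes, 35.2% fell with RP22, 40.4% fell and 38.7% rose with AA147, and 29.8% were higher and 32.2% lower between the compounds, where the paralogs ran from -0.70 to 1.45 against -0.30 to 0.47 for the family. RPS27L, the paralog of RPS27 and also a 40S protein, was at 60.9, 60.2 and 58.6 RPKM at day 1, 57.0, 70.5 and 66.9 with RP22 and 112, 149.5 and 124 with AA147. All 3 AA147 libraries lay above the other 6. Its log2 change was 0.01 with RP22 against day 1 (adjusted p = 0.89), 1.54 ± 0.113 (SE; adjusted p = 1.2e-06) with AA147 against day 1 and 1.45 ± 0.121 (SE; adjusted p = 4.8e-05) between the compounds, or 0.99 with library totals. RPS27 itself was at 245, 225 and 264 RPKM at day 1, 162, 192 and 189 with RP22 and 114, 163 and 149 with AA147, with a difference between the compounds of 0.11 that did not pass (adjusted p = 0.51).

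RPL39L, known for its role in male germ cells, went the other way. It was at 33.9, 38.2 and 37.3 RPKM at day 1, 15.5, 19.2 and 17.0 with RP22 and 9.48, 7.09 and 6.65 with AA147. The 3 groups did not overlap, and the log2 difference was -1.18 ± 0.124 (SE; adjusted p = 6.4e-05) for RP22 and -1.80 ± 0.163 (SE; adjusted p = 5.2e-06) for AA147 against day 1, and -0.70 ± 0.188 (SE; adjusted p = 0.012) between the compounds. Its partner RPL39 was at -0.37 and -0.42 against day 1. RPL22L1 was at 34.9, 39.5 and 45.6 RPKM at day 1, 17.3, 14.6 and 15.2 with RP22 and 10.8, 12.2 and 9.63 with AA147, a log2 fall of 1.44 in both comparisons with day 1, while its partner RPL22 was at -0.40 and -0.53. RPL36AL fell with RP22 (-0.88), did not pass with AA147 against day 1 (-0.15, adjusted p = 0.11; -0.59 and called lower with library totals) and was higher with AA147 than with RP22 by 0.65 ± 0.0715 (SE; adjusted p = 0.00017), or 0.19 with library totals. Its partner RPL36A was at -0.67, -0.85 and -0.26 in the same order. RPL7L1 and RPL26L1 fell by 0.73 and 0.76 with RP22 and by 0.53 and 0.53 with AA147, and did not pass between the compounds with TMM scaling (0.12 and 0.14), where library totals gave -0.34, called lower, and -0.31. RPL3L and RPL10L did not pass the count filter. Whether a paralog and its partner differ in response was not tested.

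**Figure D5:**
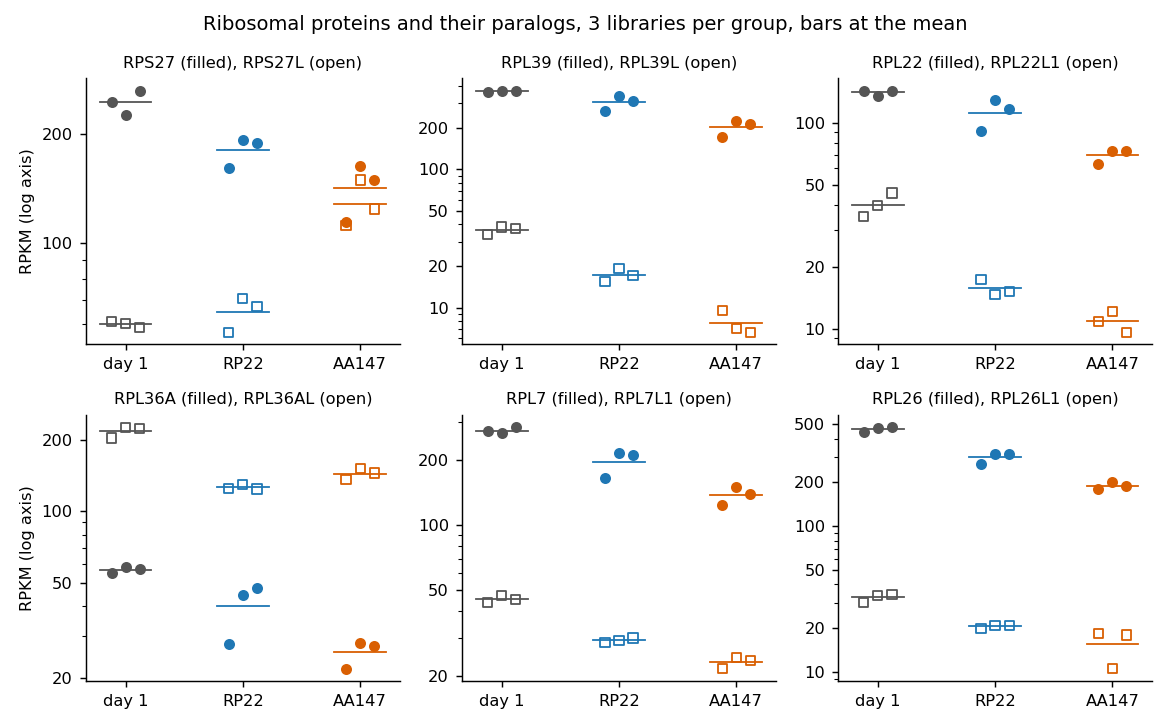
RPKM (log axis) of 6 ribosomal proteins (filled) and their paralogs (open) in the 3 libraries of each group, with bars at the group means. RPS27L stands at 112 to 149.5 RPKM with AA147, above all other libraries, while RPL39L and RPL22L1 are lowest with AA147. RPKM follows library totals. With TMM scaling, RPL39L was the only paralog called lower with AA147 than with RP22, and RPL22L1 was not called.

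Markers of other cell types differed between the groups along with these values. The summed CPM of 10 pluripotency markers was 8147 to 9126 at day 1, 631 to 1054 with RP22 and 189 to 247 with AA147, where NANOG had no reads. The 10 mesenchyme markers summed to 493 to 603, 8757 to 24590 and 32662 to 41361 CPM, and the 10 neural markers to 406 to 588, 1002 to 1606 and 348 to 369.6. Endothelial markers (6) summed to 43.1 to 65.1, 104 to 206 and 4.55 to 19.1, cardiomyocyte markers (6) to 5.59 to 6.64, 83.4 to 124 and 273 to 309.8, and hepatic and yolk sac markers (8) to 6.33 to 10.11, 136 to 209.8 and 0.759 to 5.05. The mesenchyme sum with AA147 came mostly from COL1A1, COL3A1 and COL1A2. Their means were 10907, 10201 and 8851 CPM, against 3754, 4499 and 3499 with RP22. Of the 10 mesenchyme markers, 6 were called higher than with RP22 on the TMM scale and 1 lower (29.8% and 32.2% of all genes). TWIST1 had 4.84, 2.28 and 1.89 CPM with AA147 against 16.9, 9.63 and 10.3 with RP22. DCN had 102, 43.9 and 70.1 CPM against 475, 62.2 and 74.9. The neural sum with AA147 came almost wholly from TUBB3, at 341, 346 and 365 CPM in the AA147 libraries. The next highest neural marker with AA147 was STMN2, at a mean of 2.54 CPM against 272 with RP22 and 10.8 at day 1. The cardiomyocyte sum with AA147 came mostly from MYL7 and NPPB, at means of 135 and 108 CPM against 34.2 and 14.6 with RP22. TNNT2 averaged 44.2 CPM with AA147 and 33.0 with RP22. MYH6 and ACTN2 were lower with AA147, at 0.0358 and 0.722 against 16.6 and 2.22. NKX2-5 had almost no reads in any group. The pluripotency sum with AA147 came mostly from L1TD1 and ZFP42, at means of 104 and 64.8 CPM, against 224 and 62.2 with RP22. POU5F1 and SOX2 averaged 0.348 and 0.460 CPM with AA147. With TMM scaling, 7 of the 8 pluripotency markers tested were lower with AA147 than with RP22 (32.2% of all genes). The other, ZFP42, was higher by 0.51, or 0.059 and not called with library totals. Of the defining markers, NEUROD1 and PECAM1 had no reads at day 1 and with AA147, TTR none in either, and FGB and NKX2-5 none at day 1 and APOA2 none with AA147. The part of cell makeup in the ribosomal protein values was not tested.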

How the data were processed

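RNA was sequenced in 9 libraries. For each of them the authors deposited expected counts per gene and, in a second table, RPKM. Reads were placed on GRCh37.p13 according to the submitters' processing notes. Which aligner and counter were used, and how multi-mapped or stranded reads were handled, is not given in the sources used here. The 41.4% of count cells at a floor of 0.05 were read as 0, fractions were rounded (0.914% of cells, 1 of the 77 genes), and 42 repeated symbols were summed. Libraries held 9223027 to 10118258 reads. Reads from mouse feeder cells could not be separated.

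Each comparison was fitted on its own 6 libraries in edgeR 4.0.16 (R 4.3.3) with filterByExpr, TMM scaling and the robust quasi-likelihood F test, and p-values were adjusted by Benjamini-Hochberg over all genes tested (threshold 0.05). The test was tried first on simulated data with a small set of changed genes, in random directions. That simulation held no large shift in library makeup, so it does not bear on the choice of scaling. Biological coefficients of variation were 15.4% (AA147 and RP22), 15.6% (RP22 and day 1) and 12.3% (AA147 and day 1). The SE is the absolute log2 fold change divided by the square root of F. The p-values rest on the replicates being separate experiments, which the samples' extraction protocol states and the replicate labels alone do not. Alternatives were library totals, DESeq2 1.42.0, limma 3.58.1 on log2 of the deposited RPKM plus 1 or 0.1, other filters and fits, and fits without single libraries. Genes were named as the 5 highest and 5 lowest per comparison and in mean RPKM, a set of genes of known function, the extremes of each list, all paralogs, and members called against the family's median. Some genes that this rule names are not reported here, and 3 are not drawn. The members and lists were chosen with earlier results of these data known. Replicate numbers are shared by the groups. Between AA147 and RP22 the deviations of same-numbered libraries correlated at 0.21, 0.16 and 0.08, and those of different-numbered libraries between -0.22 and 0.14. In the comparisons with day 1 these ranges were -0.07 to 0.06 and -0.10 to 0.07. The numbers were not taken as pairs, and a fit with the replicate number as a block is given below. Start sequences are from RefSeq on GRCh38.p14, and their coordinates were not mixed with the files' build.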

Additional observations from a re-analysis of the deposited data

How the results depend on the processing

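The falls against day 1 held under all alternatives run: 74 to 77 genes were lower with RP22 under each, and 72 to 77 with AA147. Of all genes, 31.3% to 38.0% were lower with RP22 and 38.1% to 53.9% with AA147. These shares cover library totals, DESeq2, limma, the fit of all 9 libraries, the replicate block and the fit without replicate 1 of both groups. For AA147 against day 1, the median moved to -1.06 with library totals and -1.04 with limma on either RPKM scale, and the count of higher genes ran from 0 to 1 without single libraries and was 1 without replicate 1 of both groups. For AA147 against RP22, 0 genes were higher and 71 lower with library totals (median -0.51) and with limma on log2(RPKM + 1) or log2(RPKM + 0.1) (medians -0.49 and -0.49). Most of all genes were also lower there, 59.7% with library totals and 59.5% with limma, and 13.3% were higher. One fit of all 9 libraries gave 11 higher and 0 lower (32.5% and 29.4% of all genes), DESeq2 gave 6 and 5 (28.0% and 30.5%), and the fit without replicate 1 of both groups gave 10 and 16 (33.2% and 36.9%). Without single libraries the higher count ran from 5 to 8 and the lower from 0 to 14, and 5 of the 9 calls held throughout. Without RP22 replicate 1, 33.2% of all genes were lower, and shares for the other single-library fits are not given. With the replicate number as a block, 6 were higher and 7 lower (28.9% and 31.8% of all genes); the numbers were not shown to pair the libraries, and the block left 77 and 74 lower in the comparisons with day 1. The RPKM shares of the family were 8.95%, 6.66% and 4.98%, a different unit from shares of reads.

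A single gene is said here to turn when its fold change changed sign and it was called under either setting. Of the 77, only RPL28 went from called higher to called lower with library totals. These fold changes turned from positive to negative between AA147 and RP22, with library totals, RPKM + 1 and RPKM + 0.1 in that order: FAU (-0.11, -0.11, -0.11), RPL28 (-0.21, -0.19, -0.19), RPL37A (-0.16, -0.16, -0.16), RPL38 (-0.18, -0.23, -0.23), RPL7L1 (-0.34, -0.33, -0.34), RPLP0 (-0.32, -0.32, -0.32), RPLP1 (-0.053, -0.055, -0.056), RPLP2 (-0.32, -0.31, -0.31) and TSR2 (-0.15, -0.14, -0.14). RPS19 turned to -0.0096 with library totals only, and was 0.20 on the RPKM scales. Against day 1 with AA147, RPL10 turned to -0.28 under all 3 and RPS19 to -0.44 with library totals. These alternatives use no TMM scaling; the cause was not tested further. The planned share without mitochondrial genes was not run, since the 15 mitochondrial rows hold 0 reads. Each of the 77 genes had at least 99 reads in every library, and the effect of depth was not tested.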

Other observations

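Rows beside the family bear on how its reads were assigned. The read-through rows RPL36A-HNRNPH2 and RPS10-NUDT3 had 0 reads in all 9 libraries, and RPL17-C18orf32 at most 1. The ratio of reads to RPKM was constant within 5% over the libraries for 56 of the 77 genes. For RPS19 it gave 849 bases in 6 libraries, 814 in day 1 replicate 2, 718 in AA147 replicate 1 and 662 in AA147 replicate 2, so the RPKM of RPS19 is not on 1 length. For RPS14, a 40S protein, it ran from 877 to 1294 bases.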
